A study of Homo sapiens with 3 samples.

Results

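STUB1, also known as CHIP, and the HSP70 machinery were examined as 10 genes: STUB1, HSPA1A, HSPA1B, HSPA8, HSPA2, HSPA9, HSPA4, HSPA4L, BAG1 and BAG2. Their members on the Affymetrix HG-U133 Plus 2.0 array were all probe sets whose platform annotation names one of these genes, which gave 27 of 54675 probe sets. Of these, 20 name 1 gene only and 7 are joint. The joint probe sets are 3 annotated to both HSPA1A and HSPA1B, 1 of them also to HSPA1L, and 4 annotated to HSPA8 together with small nucleolar RNAs. HSPA1A and HSPA1B therefore have 1 shared value, so that 9 values describe the 10 genes, against 19775 genes read singly on the whole array.

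Total RNA was profiled on 3 arrays, 1 for each of 3 lines of C4-2B, an established line of human castration-resistant prostate carcinoma from the LNCaP lineage. The parental line grew in RPMI medium with fetal bovine serum and was passaged in parallel with both resistant lines. C4-2B MDVR cells were kept in medium with 20 µM enzalutamide, an androgen receptor antagonist, and C4-2B AbiR cells in medium with 10 µM abiraterone acetate, an inhibitor of androgen synthesis. Each resistant line is a single subline, so that drug and subline cannot be told apart. Each value is an RMA log2 value that had been centred for its probe set before deposit. The zero was apparently set with at least 1 further array that was not analysed here, so only differences between these arrays have a meaning. A centred value has no expression level, so members cannot be compared with each other by level and whether the prostate markers of the line were expressed cannot be read. Differences of such markers can be read, and they were large for several androgen-regulated genes. KLK3, which encodes PSA, had log2 differences from parental of −4.07 for MDVR and −3.17 for AbiR, SLC45A3 had −2.91 and −3.15, and KLK2 had −1.29 and −2.12. TMPRSS2 was at −0.18 and −0.45, and HOXB13 at 0.37 and 0.17. Their part in the results below was not tested. With 1 array per line there is no replicate check and no test, and every comparison below is a difference between 2 arrays. Fewer cells with a transcript and less transcript per cell cannot be told apart in bulk RNA.

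HSP70 chaperones bind exposed hydrophobic stretches of client proteins in a cycle driven by ATP. J-domain proteins bring clients and speed ATP hydrolysis, and nucleotide exchange factors, among them the HSP110 and BAG proteins, release ADP and then the client. STUB1 is a U-box ubiquitin ligase that docks on the C-terminal tail of cytosolic HSP70 and HSP90 and ubiquitinates the bound client, the androgen receptor being one such client. The balance between folding and ubiquitination on HSP70 is the question the study put to these cells.

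HSPA1A and HSPA1B are neighbouring, nearly identical stress-inducible genes, and no probe set of the array names only 1 of them. The RefSeq table, of build GRCh38.p14, held 11 promoters for 9 of the 10 genes, all but STUB1, each of 250 bases before and 50 bases after an annotated start. The last 150 bases before the start are shown for the inducible pair and for the constitutive HSPA8, to show how alike the pair is and how the heat shock motifs differ from those of HSPA8. Capitals mark matches to GAANNTTC or TTCNNGAA, each of which is a pair of inverted heat shock units as bound by heat shock factors, and to the TATA box TATAAA. The windows are chr6:31815393-31815542 on the plus strand for HSPA1A, chr6:31827588-31827737 on the plus strand for HSPA1B and chr11:123062137-123062286 on the minus strand for HSPA8, all upstream of the annotated start and written 5′ to 3′ on the strand of the gene.
HSPA1A: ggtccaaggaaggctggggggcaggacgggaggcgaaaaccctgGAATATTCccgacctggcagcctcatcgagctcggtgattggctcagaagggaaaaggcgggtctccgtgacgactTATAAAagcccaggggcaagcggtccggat
HSPA1B: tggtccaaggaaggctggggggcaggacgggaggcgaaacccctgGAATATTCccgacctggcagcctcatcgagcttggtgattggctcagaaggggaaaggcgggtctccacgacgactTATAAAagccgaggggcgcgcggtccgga
HSPA8: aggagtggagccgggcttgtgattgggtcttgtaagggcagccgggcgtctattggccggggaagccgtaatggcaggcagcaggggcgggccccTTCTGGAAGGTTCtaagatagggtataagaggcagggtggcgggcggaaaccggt

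In a global alignment, the HSPA1A and HSPA1B windows were identical over 93.4% of aligned positions, with 141 identical bases, 8 mismatches and 2 gaps. Against HSPA8, the same windows were identical over 50.9% and 50.3%. The inducible pair has 1 heat shock pair each, at −106 and −105 bases from the start, and a TATA box at −30 and −29. Motifs were searched on both strands. HSPA8 has 2 runs, at −230 and at −55, in each of which both forms of the pair overlap. A GAANNTTC whose TTC also begins a TTCNNGAA, on either strand, makes up such a triplet of units. The triplet was found in 0.490% of 35116 promoters of the same length, and GAANNTTC in 6.77%, TTCNNGAA in 7.74% and TATAAA in 11.5% of them. A heat shock pair of either form was found in 6 of the 11 member promoters, namely 1 each of HSPA1A, HSPA1B, HSPA8, HSPA9, HSPA4L and BAG2, and in 13.5% of all promoters. A match describes the letters in these windows and is not a binding site.

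**Figure D1:**
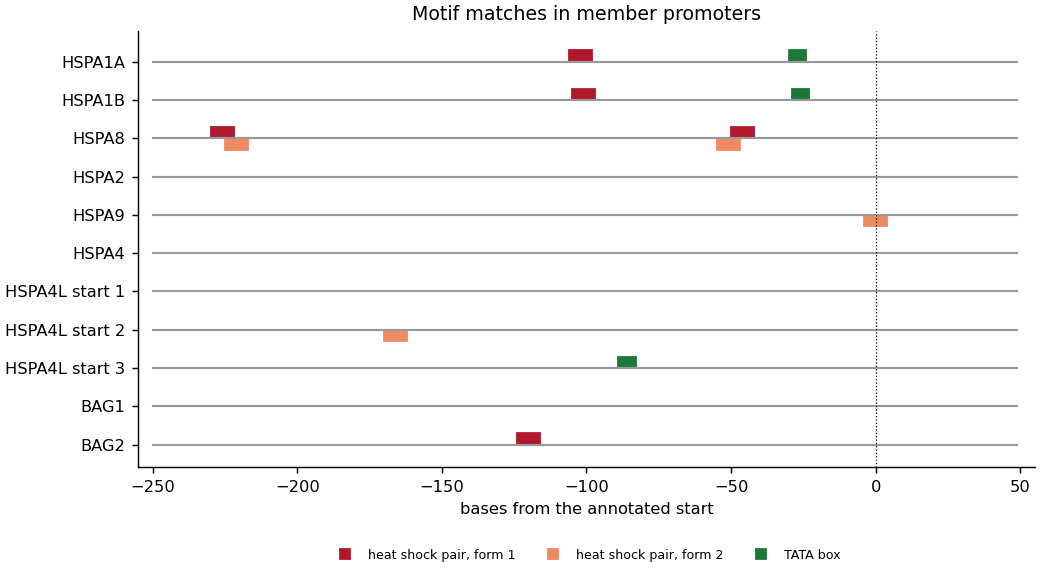
Each line is 1 of the 11 RefSeq promoters of the members, plotted by distance in bases from the annotated start (x axis), and coloured blocks are matches to either form of the heat shock pair and to the TATA box. HSPA1A and HSPA1B have the same arrangement, with the pair at −106 and −105, and HSPA8 has overlapping pairs at −230 and −55.

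STUB1 was the ligase of the group and was lower on the MDVR array. Its 3 probe sets had centred log2 values of 0.081, 0.079 and 0.094 on the parental array, of −0.23, −0.26 and −0.25 on the MDVR array and of 0.050, 0.032 and 0.050 on the AbiR array. The MDVR values lay below the other 2 arrays in every probe set, and the parental and AbiR values lay close together. The log2 difference for MDVR minus parental was −0.33 ± 0.018 (SD between 3 probe sets), or 1.26-fold lower. For AbiR minus parental it was −0.041 ± 0.0092, or 1.03-fold lower. Set directly against each other, MDVR minus AbiR was −0.29 ± 0.0091.

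A technical scale came from control probe sets of the array, made for spiked RNA and called spiked probe sets here. Whether all of these RNAs were added to the samples is not stated in the sources used here. Across 45 such probe sets, single differences had an SD of 0.13 for MDVR minus parental, with a range of −0.29 to 0.35. All 3 STUB1 probe sets were below the lowest of these, and the size of the gene value stayed under the largest. Of all genes, 11.7% had a lower value than STUB1 for MDVR minus parental and 43.7% for AbiR minus parental. The SD of STUB1 was narrow, and 0.576% of 2778 genes with 3 probe sets had a smaller one for MDVR minus parental. The 3 probe sets carry the suffix _s or _x, which marks probes shared between transcripts or prone to cross-hybridization, and whether they share probes with each other was not tested. All probe sets were lower in MDVR for 15.3% of the 5508 genes with 3 or more probe sets, and in AbiR for 19.8%.

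The 10 measured genes nearest to STUB1 on its chromosome in the RefSeq annotation, 5 on each side, had a median difference of −0.029 in MDVR, between −0.69 and 0.38, and 2 of them, MCRIP2 at −0.35 and ANTKMT at −0.69, were as low as STUB1 or lower. In AbiR their median was 0.054. By the Euclidean distance over the pair of differences from parental, the genes most like STUB1 among 10522 with 2 or more probe sets were CKLF, WWC1, CCAR2, UBAC2-AS1 and ALDH1L2, at distances of 0.0035 to 0.020. In all, 234 genes lay within 0.1. Many genes thus shared the pattern of STUB1 over these 3 arrays.

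Among the cytosolic HSP70 chaperones, HSPA2 was lower in both resistant lines by more than any spiked probe set, and the inducible pair stayed within the spiked range. HSPA8 was lower in AbiR, by a mean only just past the largest spiked difference. HSPA1A and HSPA1B, the stress-inducible HSP70 genes, were read jointly by 3 probe sets with values of −0.028, −0.043 and 0.040 in parental, 0.085, 0.18 and −0.049 in MDVR, and 0.028, −0.11 and −0.040 in AbiR. The arrays overlapped and the probe sets went both ways. The mean difference from parental was 0.082 ± 0.16 in MDVR and −0.030 ± 0.074 in AbiR, and neither gene can be named from it alone.

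HSPA8, the constitutive HSP70 known as HSC70, was lowest on the AbiR array. Its 4 joint probe sets ran from 0.039 to 0.16 in parental, from −0.027 to 0.047 in MDVR and from −0.20 to −0.082 in AbiR. The AbiR values did not overlap those of the other arrays. The difference from parental was −0.21 ± 0.033 in AbiR, 1.16-fold lower, with all 4 probe sets lower, and −0.076 ± 0.056 in MDVR. The AbiR mean was just past the largest absolute difference of a single spiked probe set in that comparison, 0.20. The HSPA8 probe sets 208687_x_at and 221891_x_at, at −0.178 and −0.189, did not reach that size. By the gene value, 15.9% of genes were lower still.

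HSPA2, an HSP70 best known from the male germ line, had the lowest MDVR minus parental difference of the members. Its only probe set had centred values of 0.61 in parental, −0.17 in MDVR and 0.058 in AbiR. The parental array stood above both resistant lines. The differences from parental were −0.78 in MDVR, 1.71-fold lower, and −0.55 in AbiR, 1.46-fold lower, and 2.84% and 2.85% of genes were lower. Both values were past every spiked probe set, but a single probe set with the suffix _s has no second reading of the gene.

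HSPA9, the mitochondrial HSP70 also called mortalin, showed no shared direction. Its 4 probe sets had MDVR minus parental differences of 0.098, −0.15, −0.16 and 0.24. For AbiR minus parental they were 0.12, −0.23, −0.35 and 0.26. In each line the 2 plain probe sets were higher and the 2 with the suffix _s were lower. The means were 0.0046 ± 0.20 and −0.051 ± 0.29. With the plain probe sets alone, the means were 0.17 and 0.19, so that the sign of the AbiR mean turned. Centring on hybridization controls, which shifted every MDVR minus parental difference by −0.066, put the MDVR mean at −0.061.

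**Figure D2:**
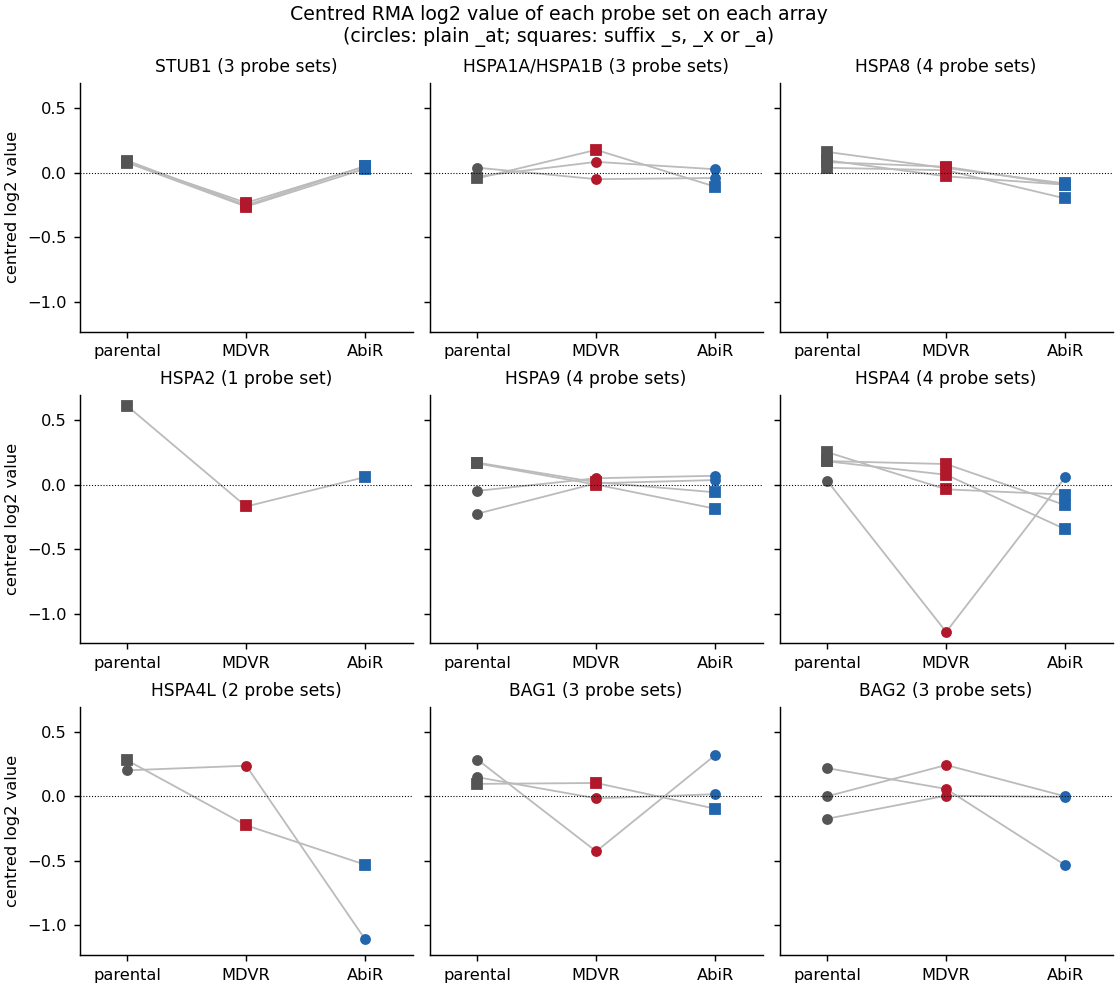
Centred RMA log2 values (y axis) of each member probe set on the parental, MDVR and AbiR arrays (x axis), 1 array per line, with circles for plain probe sets, squares for those of suffix _s, _x or _a, and lines joining the same probe set. The 3 STUB1 probe sets are lowest on the MDVR array, near −0.25, and 1 HSPA4 probe set stands alone at −1.14 there.

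The exchange factors HSPA4 and HSPA4L had the largest differences of single probe sets among the members. HSPA4, an HSP110 family protein that resets HSP70 by nucleotide exchange, was read by 4 probe sets. The probe set 208814_at had centred values of 0.028 in parental, −1.14 in MDVR and 0.055 in AbiR, so that its MDVR minus parental difference was −1.17, or 2.25-fold lower. The other 3 probe sets had MDVR differences of −0.023, −0.29 and −0.10. The gene mean of −0.40 ± 0.53 therefore rested on 1 probe set, and without it the mean was −0.14 ± 0.13.

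In AbiR the same HSPA4 probe sets divided the other way. The 3 with a suffix had differences of −0.34, −0.33 and −0.53, and 208814_at had a difference of 0.027. The mean was −0.29 ± 0.23. For MDVR minus AbiR the probe sets ran from −1.20 to 0.42, a spread larger than that of 98.1% of the 1393 genes with 4 probe sets. Which HSPA4 transcripts each probe set reads was not tested.

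HSPA4L, the HSPA4-like exchange factor, was the one member at least 2-fold lower by its gene value. Its probe set 1556194_a_at had values of 0.28 in parental, −0.23 in MDVR and −0.53 in AbiR, and 205543_at had values of 0.20, 0.24 and −1.11. AbiR was the lowest array in both probe sets. The AbiR minus parental difference was −1.06 ± 0.35 (2 probe sets), 2.08-fold lower, and 0.698% of genes were lower. In MDVR the probe sets went apart, at −0.50 and 0.036, with a mean of −0.23 ± 0.38. The direct difference of MDVR minus AbiR was 0.82 ± 0.73, above 98.7% of genes.

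BAG1 and BAG2 bind the HSP70 ATPase domain through their BAG domains. BAG1 promotes nucleotide exchange and carries a ubiquitin-like domain, and BAG2 is known as an inhibitor of STUB1 ligase activity. The 3 BAG1 probe sets had MDVR minus parental differences of −0.16, 0.0080 and −0.71. For AbiR minus parental they were −0.13, −0.19 and 0.033. The means were −0.29 ± 0.38 and −0.097 ± 0.12. The low MDVR mean again came from 1 probe set, 229720_at, which had centred values of 0.28 in parental, −0.43 in MDVR and 0.32 in AbiR, and without it the MDVR mean was −0.078.

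BAG2 was read by 3 plain probe sets. Their differences from parental were −0.16, 0.18 and 0.24 in MDVR and −0.75, 0.17 and −0.0010 in AbiR. The means were 0.087 ± 0.22 and −0.19 ± 0.49. In AbiR, 209406_at had values of 0.22 in parental and −0.53 in AbiR, and the mean of the other two was 0.084, of the other sign.

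**Figure D3:**
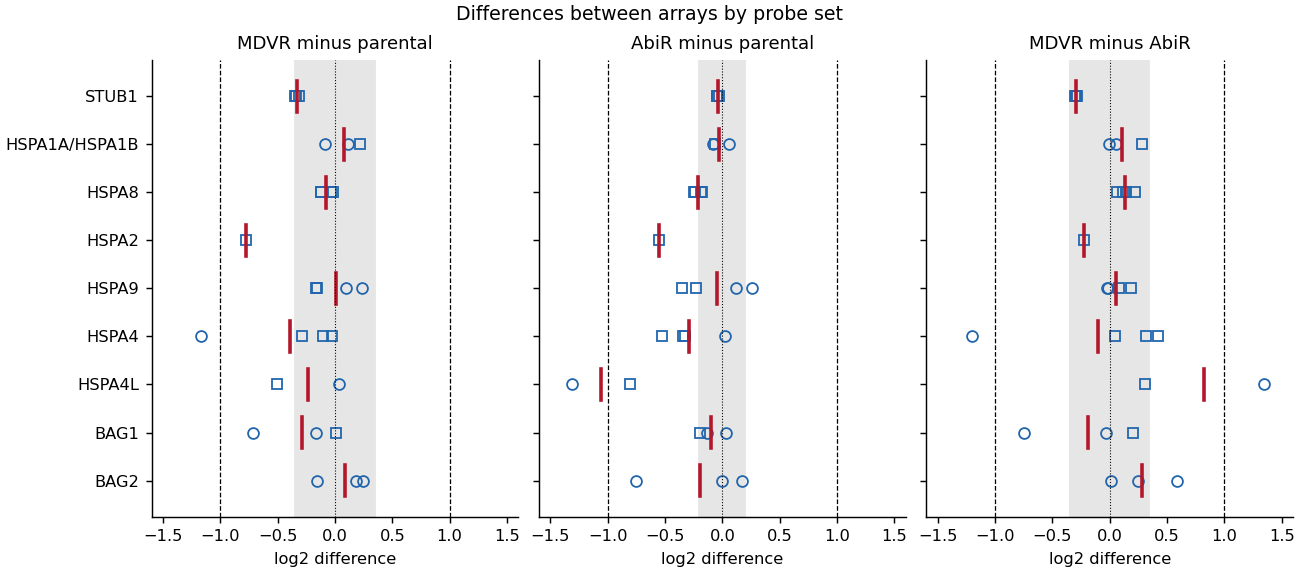
Log2 differences between 2 arrays (x axis) for each member (y axis), with open circles for plain probe sets, open squares for those of suffix _s, _x or _a, red bars for the gene mean, dashed lines at 2-fold and a grey band out to the largest absolute difference of 45 spiked probe sets. STUB1 lies at −0.33 in MDVR and −0.041 in AbiR, and HSPA4L lies at −1.06 in AbiR.

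Counted together as means over all their probe sets, more member values were lower than parental than higher. With plain probe sets alone, the medians over members lay near 0, as given below. A difference of at least 0.32 on the log2 scale was counted first. In MDVR, 3 of 9 gene values, those of STUB1, HSPA2 and HSPA4, were lower by that much, against 12.2% of all genes. None of the 9 was higher by that much, against 13.8% of genes. In AbiR, the values of HSPA2 and HSPA4L, 2 of 9, were lower, against 8.38% of genes, and 0 were higher, against 8.84%. With 9 values, each of these counts rests on 1 to 3 genes. The HSPA4 value in MDVR passed through 1 probe set only. With the median of the probe sets of a gene in place of the mean, 2 were lower in MDVR and 3 in AbiR. With arrays centred on hybridization controls, 4 were lower in MDVR and 3 in AbiR. The share of all genes was not counted under these settings.

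At 2-fold, 0 members were lower in MDVR, against 1.67% of genes, and 1, HSPA4L, was lower in AbiR, against 0.804%. No member was 2-fold higher than parental, against 1.65% of genes in MDVR and 1.07% in AbiR. Between the resistant lines, HSPA4L was the 1 member higher in MDVR by at least 0.32, against 11.5% of genes, and 0 were lower, against 10.2%. At 2-fold, 0 were higher and 0 lower there, against 0.875% and 1.13% of genes.

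Over the 27 probe sets, 6 were lower in MDVR by at least 0.32 and 0 higher, against 13.6% and 14.5% of all probe sets. In AbiR, 8 were lower and 0 higher, against 9.78% and 10.8%. Probe sets of 1 gene are not separate members. Those lower in AbiR included HSPA4 at −0.341, −0.329 and −0.525 and HSPA4L at −0.809 and −1.308. Those lower in MDVR included STUB1 at −0.341 and −0.345. At 2-fold, 1 probe set was lower in MDVR, that of HSPA4, against 2.29%, and 1 in AbiR, that of HSPA4L, against 0.936%. None was 2-fold higher, against 1.52% in MDVR and 1.33% in AbiR. For MDVR minus AbiR, 3 were higher and 2 lower by at least 0.32, against 13.7% and 13.6%, and 1 was 2-fold higher and 1 lower, against 0.890% and 2.01%.

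The median over the 9 values was −0.23 in MDVR, where the median of all genes was 0.044. In AbiR it was −0.19, where that of all genes was −0.011. With plain probe sets alone, which left 6 members, the medians were 0.024 and −0.031, so that the MDVR median changed sign. The share of all genes below 0 was not counted, and their medians of 0.044 and −0.011 lay near 0. All 9 member values were below 0 in AbiR, as were 6 in MDVR. In AbiR this depended on the summary: with plain probe sets alone HSPA9 was at 0.19 and HSPA4 at 0.027, and without the lowest probe set of each gene HSPA9 was at 0.049 and BAG2 at 0.084. Both differences use the same parental array and are not independent of each other.

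**Figure D4:**
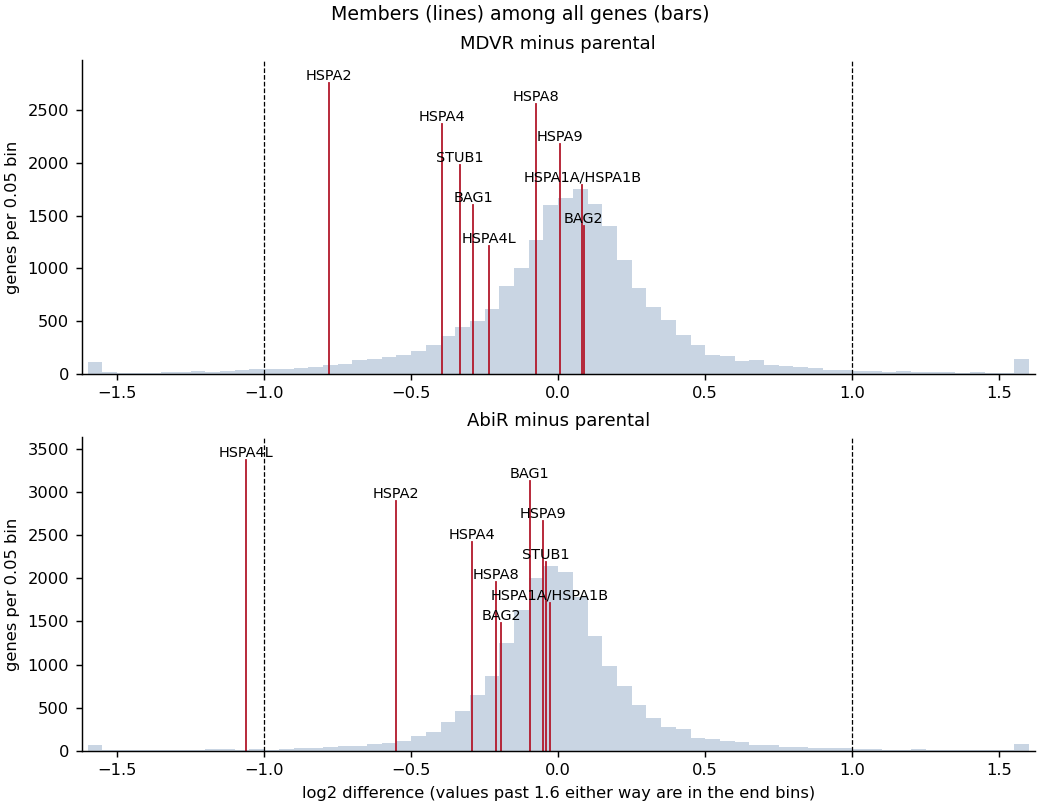
Bars count all 19775 genes by log2 difference from parental (x axis, bins of 0.05, y axis in genes), for MDVR above and AbiR below, and red lines mark the members, with line heights set only to keep the names apart and dashed lines at 2-fold. HSPA2 is the lowest member in MDVR, at −0.78, and HSPA4L in AbiR, at −1.06, while HSPA1A/HSPA1B sits near the centre of both.

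The relation of HSP70 to its ligase was read as the difference of each member minus that of STUB1. On the MDVR array, HSPA1A/HSPA1B stood 0.41 above STUB1, BAG2 0.42, HSPA9 0.34 and HSPA8 0.26, relative to the parental array. On the AbiR array these values were 0.011, −0.15, −0.0100 and −0.17. HSPA4L had the largest departure there, at −1.02, followed by HSPA2 at −0.51 and HSPA4 at −0.25, and BAG1 was at −0.056. For the inducible HSP70 genes, the MDVR value came mostly from the STUB1 term of −0.33, with 0.082 from their own. Of all genes, 88.3% stood above STUB1 in MDVR, where their median was 0.044, and 56.3% did in AbiR. Standing above STUB1 in MDVR was thus common to most genes. The SD between probe sets in MDVR was 0.16 for HSPA1A/HSPA1B, 0.22 for BAG2, 0.20 for HSPA9 and 0.056 for HSPA8. The means of HSPA4, HSPA4L and BAG1 were within 0.10 of STUB1 in MDVR, and HSPA2 was below it, at −0.45. Those 3 means had wider SDs between probe sets, of 0.53, 0.38 and 0.38. Without the lowest probe set of each, HSPA4 was at −0.14 and BAG1 at −0.078, so their closeness to STUB1 rested on 1 probe set each.

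The wider machinery was read from 46 genes listed by role, of which 40 were measured and 6 were not analysed here. For MDVR minus parental, 10 of the 40 were lower by at least 0.32 and 5 were higher, to be read against 12.2% and 13.8% of all genes. For AbiR minus parental, 6 were lower and 1 was higher, against 8.38% and 8.84%. The list medians were −0.075 for MDVR and −0.16 for AbiR.

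HSPH1, the HSP110 chaperone HSP105 and a relative of HSPA4, was the only one of the 40 at least 2-fold lower, in MDVR, against 1.67% of all genes there. Its 3 probe sets had centred values of 0.21, 0.39 and 0.11 in parental, −0.76, −0.48 and −1.50 in MDVR, and 0.017, 0.0010 and −0.074 in AbiR. MDVR was the lowest array in each. The difference was −1.15 ± 0.40 in MDVR and −0.26 ± 0.12 in AbiR. HYOU1, the HSP110 protein of the endoplasmic reticulum, had single probe set differences of −0.35 and −0.49.

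Among the other HSP70 proteins, HSPA13, a microsomal HSP70, had differences of −0.38 ± 0.091 in MDVR and −0.75 ± 0.026 in AbiR, with both probe sets lower in both lines. HSPA12A, a distant HSP70 relative, was at 0.68 ± 0.83 and 0.28 ± 0.43, with values from 1 probe set, 214434_at, of 1.26 and 0.58 and from the other of 0.090 and −0.018. Of the 8 further exchange factors, 2 were lower by at least 0.32 and 0 higher for MDVR, against 12.2% and 13.8% of all genes. For AbiR, 1 was lower and 0 were higher, against 8.38% and 8.84%. GRPEL2, a mitochondrial exchange factor that serves HSPA9, was the lowest of these, at −0.64 ± 0.41 and −0.54 ± 0.099.

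The J-domain proteins went both ways. DNAJB4 was at −0.71 ± 0.48 in MDVR and −0.69 ± 0.014 in AbiR, and DNAJA2 at −0.77 ± 0.75 and −0.25 ± 0.14. DNAJB2, read by 1 probe set, was higher, at 0.48 and 0.61, and DNAJC7, which binds both HSP70 and HSP90, was at 0.37 ± 0.031 and 0.26 ± 0.32. The largest MDVR minus AbiR difference in the positive direction within the wider list was that of STIP1, the adaptor known as HOP that passes clients from HSP70 to HSP90. Its 2 probe sets were at 0.17 and 0.12 in parental, 0.62 and 0.47 in MDVR, and −0.19 and −0.12 in AbiR. MDVR was highest and AbiR lowest in both, and the MDVR minus AbiR difference was 0.70 ± 0.15. HSF1, the main transcription factor of the heat shock response, had differences of 0.014 ± 0.051 and 0.085 ± 0.12.

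**Figure D5:**
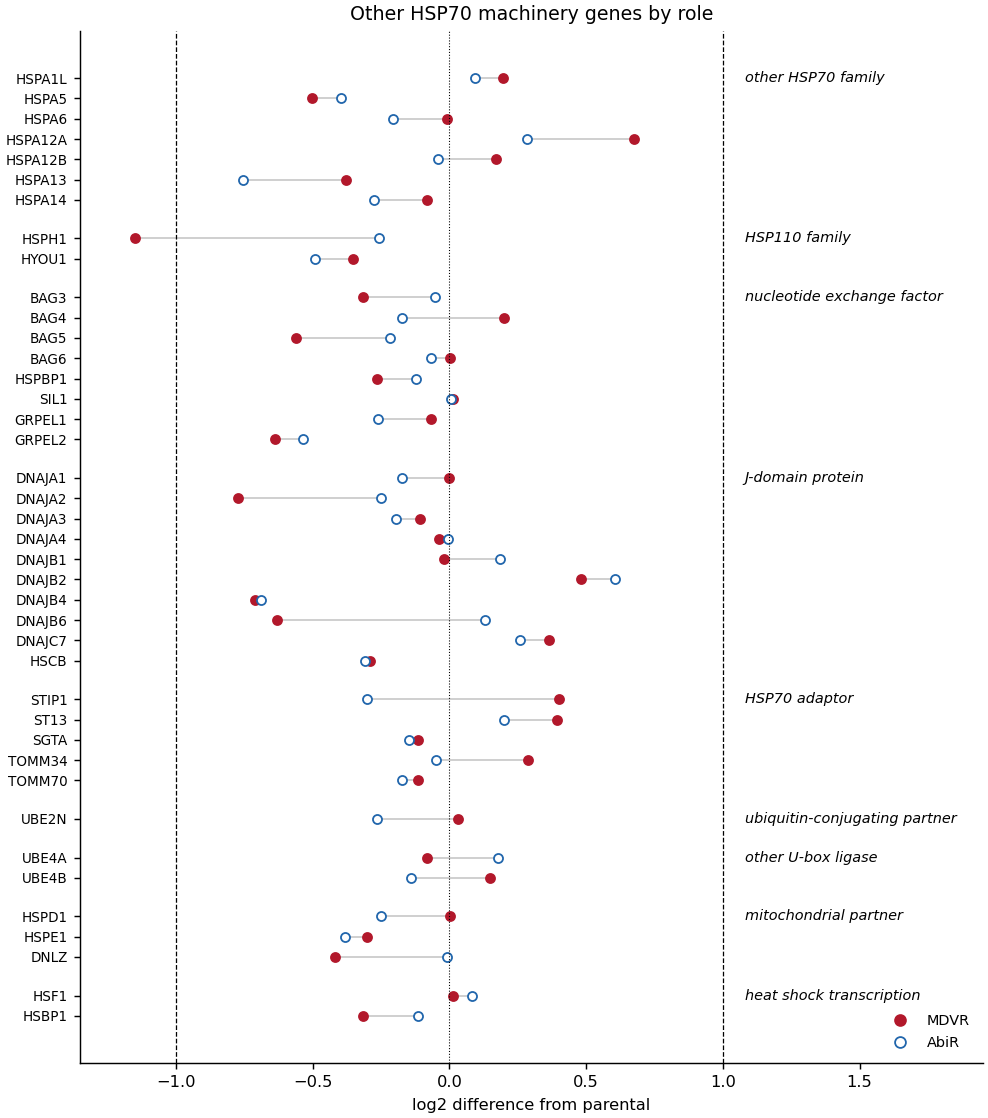
Log2 differences from parental (x axis) for the 40 measured genes of the wider list (y axis, grouped by role), with filled red points for MDVR, open blue points for AbiR and dashed lines at 2-fold. HSPH1 in MDVR, at −1.15, is the only point past a dashed line, and STIP1 lies at 0.40 and −0.30.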

How the data were processed

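The authors deposited log2 values from RMA for 54675 probe sets on 3 arrays, with an RMA version that is not given in the sources used here. This method corrects background, normalizes arrays and summarizes probes on the log2 scale. The deposited values had also been centred per probe set: 53.4% of probe sets held a pair of values mirrored around 0 within a tolerance of 1e-06, and 1.66% held an exact 0. Centring leaves differences between arrays unchanged and removes the level.

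Gene names came from GEO's platform annotation table, updated to RefSeq symbols by gene ID. A gene is the mean of its probe sets, and ± is the SD between them, a technical spread. Genes at least 0.32 apart in log2 value, or 2-fold, were counted as a description. No test was possible with 1 array per line, and the number of arrays limits the precision. The text names all members, and of the wider list the 3 highest and 3 lowest in each resistant line and genes past 2-fold. HYOU1 and HSF1, and the genes with opposite signs in the resistant lines, were added after their values were seen. The members and the lists were chosen with earlier results of these data known. The summaries were tested on simulated data. Python 3.11.15, pandas 2.3.3 and Biopython 1.88 were used. Promoter sequences came from RefSeq, and promoters were aligned globally.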

Additional observations from a re-analysis of the deposited data

Results flagged for a closer look

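Of the 40 measured genes of the wider list, 4 had differences from parental of opposite sign in the resistant lines. Each difference was at least as large as the SD of the spiked probe sets, 0.127 for MDVR and 0.102 for AbiR. No member met this rule. The share of all genes that meet it was not counted, so whether 4 of 40 is unusual cannot be told. STIP1, the HSP70 to HSP90 adaptor, was at 0.40 in MDVR and −0.30 in AbiR. DNAJB6, a J-domain protein read by 1 probe set, was at −0.63 and 0.13. BAG4, a BAG domain protein, was at 0.20 ± 0.27 and −0.17 ± 0.16, and its probe set 228189_at went the other way, at −0.11 and 0.010. UBE4B, a U-box ligase, was at 0.15 ± 0.16 and −0.14 ± 0.26. Its probe sets went both ways in each line, from −0.045 to 0.30 in MDVR and from −0.58 to 0.073 in AbiR. With 1 array per line, none of these differences between the lines was tested.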

How the results depend on the processing

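No paired analysis was possible because each line has 1 array. The values were recomputed under 5 settings, with 1 more chosen after seeing the data, the gene mean without its lowest probe set. Single genes were recomputed for the members and for the wider genes named as highest or lowest. Among these, no main value of at least 0.32 in size turned to the other sign. Smaller main values did turn. HSPA4 for MDVR minus AbiR was at −0.10 in the main setting, −1.20 with plain probe sets alone and 0.18 by the median of its probe sets. With the median of the probe sets of a gene in place of the mean, HSPA4 was at −0.20 in MDVR. HSPH1 was then at −0.96 in MDVR, short of 2-fold. The members lower by at least 0.32 were then 2 in MDVR and 3 in AbiR. With only plain probe sets kept, 6 members and 27 wider genes remained measurable, so that fewer genes entered. The median over members was then 0.024 in MDVR and −0.031 in AbiR, the members lower by at least 0.32 were 1 in AbiR and 2 for MDVR minus AbiR, and the wider genes higher by at least 0.32 were 3 in MDVR and 2 for MDVR minus AbiR. STUB1, HSPA8 and HSPA2 have no value there, and HSPA4 was at −1.17 in MDVR and 0.027 in AbiR. With arrays centred on hybridization controls, which shifted every AbiR minus parental difference by −0.091, 14 wider genes were lower by at least 0.32 in AbiR. Under the same centring, 4 members were lower by that much in MDVR and 3 in AbiR. The share of all genes was not counted again under this or any other setting, so these changed counts cannot be set against it. With arrays centred on their median, 1 member was lower for MDVR minus AbiR. With joint probe sets left out, the median over members for MDVR minus AbiR was −0.10. STUB1 was at −0.40 in MDVR and −0.13 in AbiR under hybridization control centring. Either centring shifts all genes alike, and leaving out joint probe sets leaves genes without them as they were, so these settings say little of the stability of single genes. Weakly expressed genes cannot be told from others in centred values, which limits what a small difference can show.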
